A study of Mus musculus with 6 samples.

Results

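The loci of 9 genes of extracellular proteolysis were examined in peak lists of chromatin accessibility: Plau, Plaur, Mmp2, Mmp9, Mmp14, Adamts1, Timp1, Timp2 and Timp3. Every accessible region with at least 1 base within 100 kb of the 5′ end of a gene record was taken, which gave 85 of the 39435 regions in the union of the lists, at 9 of 22350 protein-coding genes. The list presence, width and position of these regions were compared between conditions.

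ATAC-seq maps accessible DNA through adapter insertion by the transposase Tn5, and was applied to NMuMG, the only cell line used, which derives from mouse mammary epithelium. All cells spent 6 h in serum-free medium before treatment. The vehicle cells then received the diluent of the cytokine for 2 h, and the treated cells received TGFβ1 at 5 ng/ml for 2 h or for 12 h, with 2 biological replicates per condition and 6 samples in all. A vehicle at 12 h was not analysed here, so duration of treatment and time without serum cannot be told apart for the 12 h cells. The labels describe the vehicle as Tris-HCl with BSA, whereas the treatment protocol names HCl with BSA.

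Each condition had 1 peak list, built by the authors from both replicates. The lists hold no value per replicate and no read counts, so no difference between them was tested, and the depth behind a single region is unknown here. By the read totals stated in the study, filtered reads summed over replicates were most numerous for vehicle and fewest for 12 h. The part of depth in list length was not tested. The lists held 16765 regions for vehicle, 32548 for TGFβ at 2 h and 33079 at 12 h, after intervals narrower than 150 bp were dropped and those less than 1000 bp apart were merged. Since each TGFβ list was much longer than the vehicle list, the member regions are read below against the whole union. A union region that held regions of both TGFβ lists and none of the vehicle list is called gained. The term describes list membership and not a measured rise of signal.

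The label of the cells was compared with marker genes. The 5′ ends of the epithelial genes Krt8, Krt18 and Elf3 lay in a region of every list, that of Cdh1 in both TGFβ lists, and those of Epcam, Cldn7, Esrp1 and Grhl2 in none. Of 6 mesenchymal genes only Vim had a covered 5′ end, in every list. None of 3 blood and none of 3 endothelial markers had a covered 5′ end in any list. Over all protein-coding genes 35.5% of 5′ ends were covered in every list and 57.1% in none, so the 3 of 8 epithelial markers covered in every list (37.5%) did not stand above the background, and these few genes do not settle the label.

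Urokinase, encoded by Plau, is a secreted serine protease that converts plasminogen to plasmin, and Plaur encodes the cell surface receptor that concentrates it at the membrane. Matrix metalloproteinases cleave collagens and other matrix proteins and are made as inactive precursors, with the membrane-anchored enzyme of Mmp14 serving as an activator of the precursor from Mmp2. The Timp proteins bind and inhibit metalloproteinases, and this balance is known for its role in mammary branching and in the response of epithelium to TGFβ.

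Sequences are shown here for gained regions that held AP-1 motifs, because AP-1, a dimer of Jun and Fos family proteins, is the motif found most often, of the 3 searched, in regions away from gene starts. Capitals mark exact matches to TGAGTCA or TGACTCA, which are reverse complements of each other, and all sequences are the plus strand of NCBIM37 (mm9), 5′ to 3′. At Timp1 and Adamts1, the gained region nearest to the 5′ end held matches. The matches of the first 2 stretches lie 719 bp and 1944 bp upstream of Timp1, inside an intron of Syn1, and were covered by intervals of the 12 h list alone. The nearer match of the third lies 24118 bp upstream of Adamts1 in no protein-coding gene, with 2 matches whose starts are 29 bp apart, and was covered in both TGFβ lists.
Timp1 proximal, chrX:20446517-20446623: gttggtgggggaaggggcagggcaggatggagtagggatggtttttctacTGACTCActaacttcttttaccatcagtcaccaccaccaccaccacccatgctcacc
Timp1 distal, chrX:20445292-20445398: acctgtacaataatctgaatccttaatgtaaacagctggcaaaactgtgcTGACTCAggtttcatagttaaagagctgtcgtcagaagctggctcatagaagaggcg
Adamts1 upstream, chr16:85827426-85827561: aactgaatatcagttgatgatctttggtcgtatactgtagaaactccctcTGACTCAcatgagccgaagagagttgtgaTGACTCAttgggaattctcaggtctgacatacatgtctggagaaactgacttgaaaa

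A pair of further gained regions was chosen after their values were seen, since each held several matches close together in both TGFβ lists. The region about 25 kb upstream of Plau, in no protein-coding gene, held 2 matches with starts 21 bp apart. The region in an intron of Araf upstream of Timp1 held 3 matches within the stretch shown.
Plau upstream, chr14:21630656-21630783: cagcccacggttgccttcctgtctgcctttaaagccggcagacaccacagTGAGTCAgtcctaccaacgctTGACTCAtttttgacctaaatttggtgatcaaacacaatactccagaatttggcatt
Timp1 in Araf, chrX:20394247-20394387: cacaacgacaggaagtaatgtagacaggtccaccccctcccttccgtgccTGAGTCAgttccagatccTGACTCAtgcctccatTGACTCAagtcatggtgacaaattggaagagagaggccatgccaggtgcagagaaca

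The 200 bases upstream of the 5′ ends of Plaur and Plau are shown for an AP-1 match and a simple repeat, also a choice made after their values were seen. The Plaur promoter held an AP-1 match 86 bp upstream of the 5′ end, the only one in the 9 promoters, while 3.11% of the promoters of 22350 genes held one. In the Plau promoter the capitals mark an alternating run of G and A of 72 bases, and 7 of 22350 promoters (0.0313%) held such a run at least as long. The SMAD palindrome GTCTAGAC was in none of the 9 promoters and in 0.0984% of all.
Plaur promoter, chr7:25247319-25247518: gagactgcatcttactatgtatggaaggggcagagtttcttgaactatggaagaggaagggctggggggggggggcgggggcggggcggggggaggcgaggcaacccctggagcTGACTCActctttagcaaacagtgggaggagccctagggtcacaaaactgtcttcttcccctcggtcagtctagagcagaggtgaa
Plau promoter, chr14:21655684-21655883: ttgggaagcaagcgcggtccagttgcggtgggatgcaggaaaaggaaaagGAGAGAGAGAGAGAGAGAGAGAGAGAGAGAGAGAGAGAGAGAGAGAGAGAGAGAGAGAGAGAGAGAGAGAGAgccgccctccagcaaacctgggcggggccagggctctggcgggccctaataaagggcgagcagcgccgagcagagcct

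Across the loci the TGFβ lists held more accessible regions than the vehicle list. Of the 85 regions, 38 were present in vehicle, 72 at 2 h and 74 at 12 h, and the regions covered 21426 bp, 52568 bp and 51156 bp. The lists as a whole differed in the same direction. Regions of all 3 lists numbered 35 (41.2%, 95% Wilson interval 31.3 to 51.8), beside 38.4% of the whole union. Gained regions numbered 27 (31.8%, 22.8 to 42.3), beside 28.5%. A further 8 regions were present at 2 h alone (9.41%, 4.85 to 17.5), beside 12.9%, and 12 at 12 h alone (14.1%, 8.26 to 23.1), beside 16.3%. Vehicle and 2 h shared 2 regions without 12 h (2.35%, 0.648 to 8.18), beside 2.25%, and 1 region was in vehicle alone (1.18%, 0.208 to 6.37), beside 1.16%. No region was shared by vehicle and 12 h without 2 h, which allows a share of up to 4.32%, beside 0.388%. All of these background shares lay inside the intervals of the members, which cover counting error only, and the regions are neither replicates nor independent of each other.

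**Figure D1:**
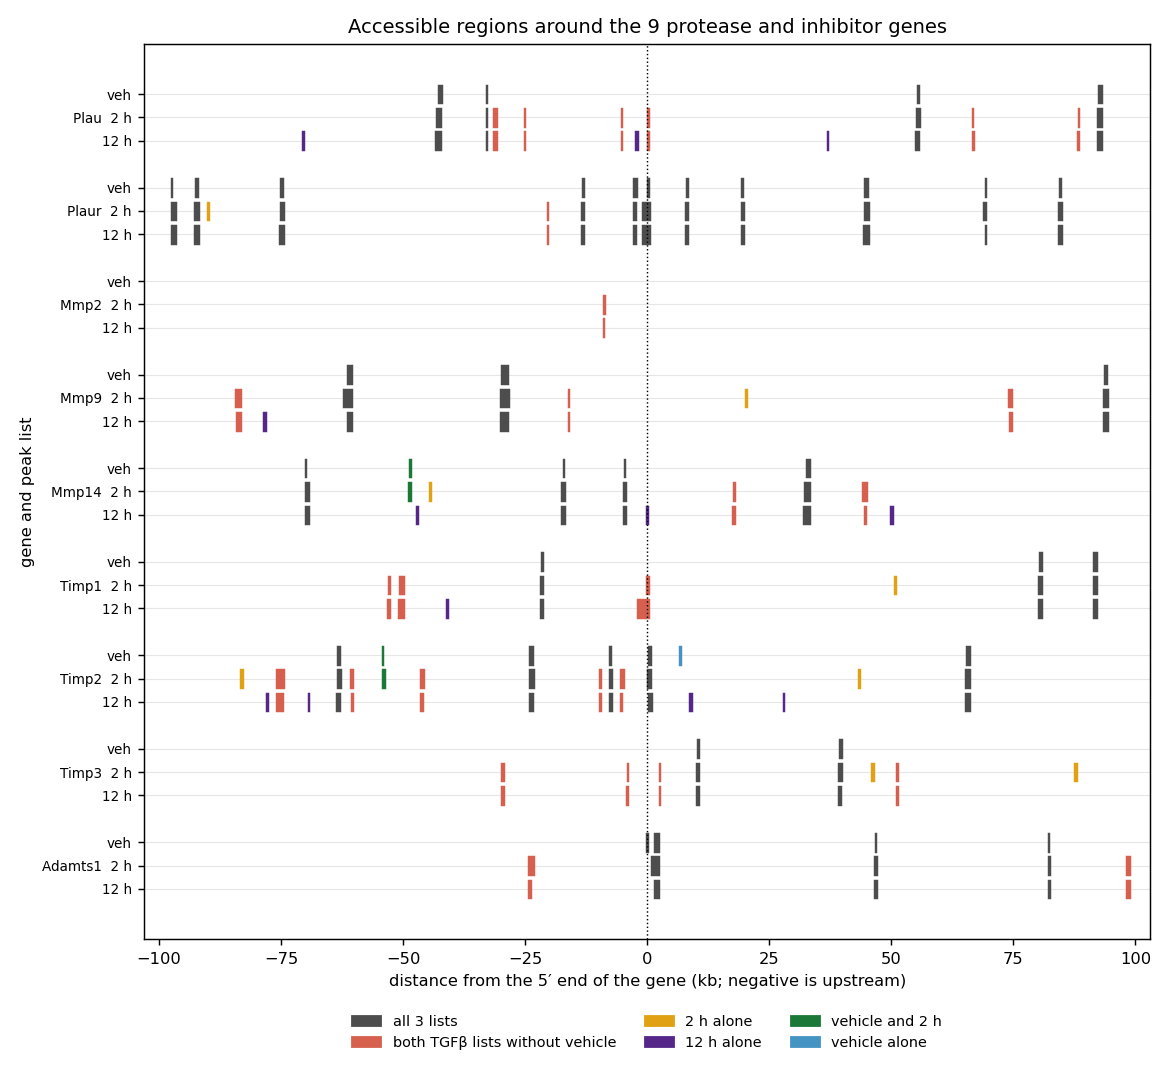
Accessible regions at the 9 genes, 1 track per list, against the distance from the 5′ end of the gene in kb, with negative values upstream. Blocks are list regions coloured by presence pattern, with very narrow ones widened to stay visible, and the 27 gained regions appear in the 2 h and 12 h tracks of every gene while the vehicle track of Mmp2 is empty.

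Each of the 9 genes had at least 1 gained region, as did 62.7% of all protein-coding genes. Each also had more regions in either TGFβ list than in the vehicle list, which held for 62.6% of genes. The windows of the 9 genes held a median of 8 union regions, against 5 over all genes, though that of Mmp2 held 1 and that of Adamts1 held 5. Median counts per window in the vehicle, 2 h and 12 h lists were 3, 8 and 7 for the 9 genes, and 2, 4 and 4 for all genes. From 2 h to 12 h the count was higher at Plau, Mmp14 and Timp2, as at 27.3% of genes, lower at Plaur and Timp3, as at 27.4%, and equal at Mmp2, Mmp9, Timp1 and Adamts1.

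**Figure D2:**
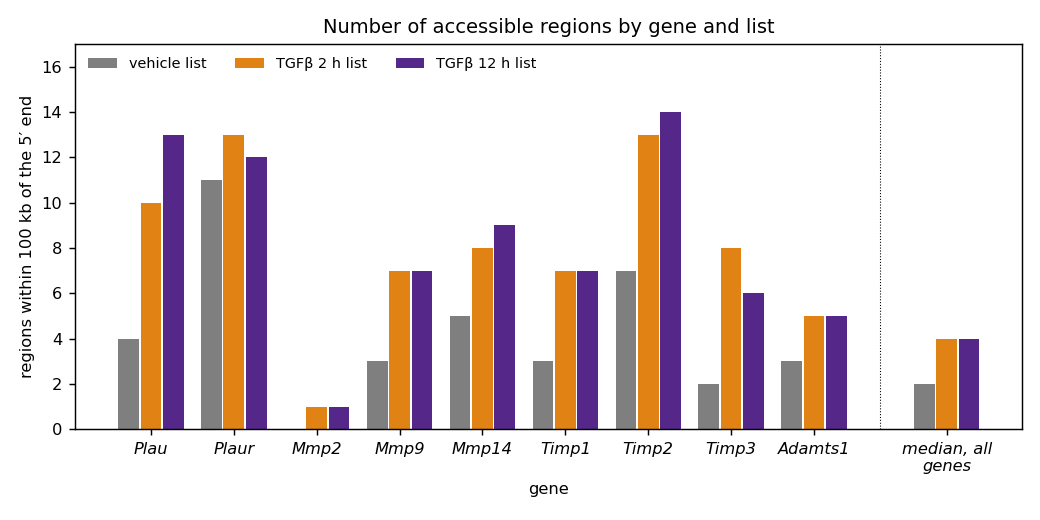
Number of regions within 100 kb of the 5′ end in each list for the 9 genes, with the median over 22350 protein-coding genes at the right. Plau went from 4 regions in vehicle to 10 and 13 in the TGFβ lists, whereas Plaur held 11, 13 and 12.

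The 5′ ends themselves were covered in different lists from gene to gene. The vehicle list covered those of Plaur and Adamts1, the 2 h list those of Plau, Plaur, Timp1 and Timp2, and the 12 h list those of Plau, Plaur, Mmp14 and Timp1. Over all protein-coding genes the shares covered were 35.9%, 41.4% and 41.6%. Plau and Timp1 were covered in both TGFβ lists and not in vehicle, as were 4.72% of genes. Only Plaur was covered in every list, the pattern of 35.5% of genes. Timp2 was covered at 2 h alone (1.05% of genes), Mmp14 at 12 h alone (1.20%) and Adamts1 in vehicle alone (0.103%, or 23 genes), and Mmp2, Mmp9 and Timp3 in no list (57.1%).

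**Figure D3:**
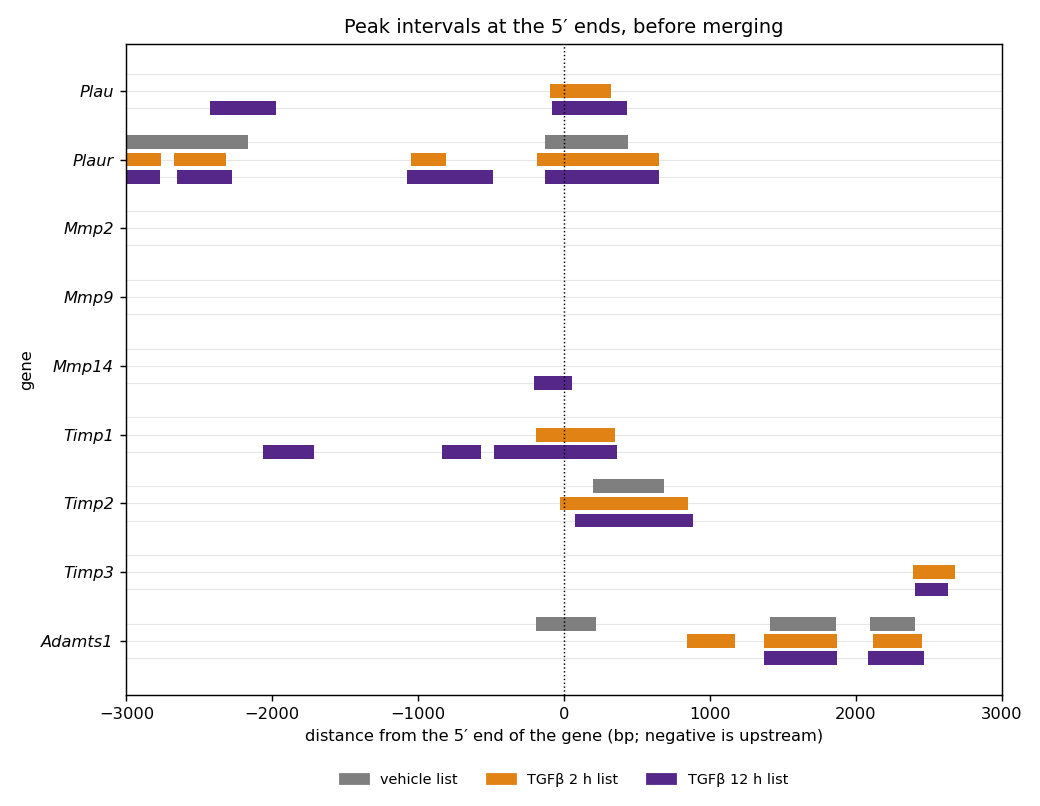
Peak intervals within 3 kb of the 5′ ends, before merging, as distance in bp with negative values upstream. Plau and Timp1 have intervals over the 5′ end in both TGFβ lists, Mmp14 at 12 h and Adamts1 in vehicle, and the Timp1 track has 2 further upstream intervals at 12 h.

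Among the proteases, Plau (ENSMUSG00000021822.2, chr14:21655884-21662610, plus strand) went from 4 regions in vehicle to 10 at 2 h and 13 at 12 h, and from 2295 bp to 5783 bp and 6935 bp covered. Among the other protein-coding genes, 1 had this same set of 3 counts. Its 6 gained regions were the most of the 9 genes, and 0.747% of all genes had more. No vehicle region lay within 32826 bp of its 5′ end. The interval over the 5′ end measured 415 bp at 2 h (chr14:21655789-21656203) and 521 bp at 12 h (chr14:21655798-21656318), and both began inside the GA run of the promoter, which spans bases 21655734 to 21655805. A region of 452 bp, present at 12 h alone, lay 1976 bp upstream.

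Of the other gained regions at Plau, those 5091 bp, 25040 bp and 30701 bp upstream measured 315, 317 and 848 bp at 2 h and 395, 253 and 974 bp at 12 h. Those 66421 bp and 88135 bp downstream measured 387 and 207 bp at 2 h and 238 and 327 bp at 12 h. Gained regions thus lay on both sides of the gene, and the widest, about 31 kb upstream, lay in no protein-coding gene. The 4 regions in all lists included the starts of Camk2g and Vcl, and that of Camk2g showed the largest gain of width from vehicle to 12 h, from 733 bp in vehicle to 1074 bp at 2 h and 1183 bp at 12 h.

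Mmp2, which encodes a gelatinase (ENSMUSG00000031740.7, chr8:95351227-95377316, plus strand), had a single region in its window. It lay 8738 bp upstream, measured 354 and 235 bp at 2 h and 12 h, and was missing from vehicle. The nearest vehicle region lay 469044 bp from the 5′ end. Another 480 protein-coding genes shared its counts of 0, 1 and 1.

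The other gelatinase gene, Mmp9 (ENSMUSG00000017737.2, chr2:164766280-164781350, plus strand), had 3 regions in vehicle and 7 in each TGFβ list. None came closer to the 5′ end than 15974 bp, where a gained region measured 211 and 247 bp at 2 h and 12 h. The other 2 gained regions covered the start of Pltp (1031 bp at 2 h and 1039 bp at 12 h) and an intron of Ncoa5 (725 and 603 bp), the latter with an AP-1 match. All 3 vehicle regions covered starts of neighbouring genes, Pcif1, Zfp335 and Ncoa5. Of these the start of Zfp335 gained most width from vehicle to 12 h, from 1294 bp in vehicle to 1747 bp at 2 h and 1705 bp at 12 h.

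Mmp14 (ENSMUSG00000000957.8, chr14:55050441-55060095, plus strand) had 5 regions in vehicle, then 8 at 2 h and 9 at 12 h. The interval over its 5′ end was found at 12 h alone and was short, at 263 bp (chr14:55050236-55050498). The nearest interval was 4609 bp upstream in vehicle and 4409 bp upstream at 2 h, in each case at the start of Mrpl52. A region in an intron of Slc7a7, 48363 bp upstream, measured 489 bp in vehicle and 495 bp at 2 h and was missing at 12 h. In the same gene a region of 390 bp was present at 2 h alone and another of 312 bp at 12 h alone, so this stretch differed in every list. The nearer gained region, 17314 bp downstream at a U6 record, measured 516 and 659 bp at 2 h and 12 h. The start of Oxa1l gained the most width from vehicle to 12 h, going from 230 bp in vehicle to 806 and 813 bp.

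Adamts1, which encodes a secreted protease of aggrecan and versican (ENSMUSG00000022893.8, chr16:85794072-85803358, minus strand), was the only member whose 5′ end was covered in vehicle and in neither TGFβ list. The vehicle interval measured 413 bp (chr16:85803139-85803551), with a score of 922 on a scale of the authors that is not stated and that ran from 540 to 1000. The nearest interval began 846 bp downstream of the 5′ end at 2 h and 1371 bp downstream at 12 h. Further into the gene, intervals of 448 bp in vehicle and 500 and 501 bp in the 2 h and 12 h lists overlapped, and the 2 h list held a further interval of 329 bp between these and the 5′ end. Another transcript of Adamts1 started inside a region of each TGFβ list. When regions up to 1000 bp from the 5′ end were counted, Adamts1 had one in vehicle and at 2 h.

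Gained regions of Adamts1 lay 23190 bp upstream (1233 bp at 2 h and 583 bp at 12 h) and 98016 bp downstream (961 and 885 bp), and both held AP-1 matches. The upstream region was merged from 2 intervals at 2 h and was 1 interval at 12 h. The downstream region was 1 interval at 2 h and was merged from 2 at 12 h. The largest gain of width to 12 h was found 46475 bp downstream, from 306 bp in vehicle to 576 and 487 bp.

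The receptor gene Plaur (ENSMUSG00000046223.9, chr7:25247519-25260892, plus strand) had the most vehicle regions of the 9 genes, with 11 there, then 13 at 2 h and 12 at 12 h. Its window held 1 gained region, 20387 bp upstream, of 237 bp at 2 h and 217 bp at 12 h. What differed at Plaur was mainly width. The region over the 5′ end measured 571 bp in vehicle and 1700 and 1727 bp in the 2 h and 12 h lists. Before merging, the interval over the 5′ end measured 571, 838 and 780 bp, and the TGFβ lists added an interval upstream, of 237 bp at 2 h and 588 bp at 12 h. The printed AP-1 match lay inside the interval in every list. A region 96454 bp upstream, in no protein-coding gene, measured 224 bp in vehicle and 1188 and 1163 bp in the 2 h and 12 h lists. It was 1 interval in vehicle and was merged from 2 intervals in each TGFβ list. In contrast, the region 2168 bp upstream measured 853 bp in vehicle and 711 and 728 bp in the 2 h and 12 h lists.

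Among the inhibitors, Timp1 (ENSMUSG00000001131.5, chrX:20447292-20451861, plus strand, within an intron of Syn1) had 3 regions in vehicle and 7 in each TGFβ list. The nearest vehicle interval lay 21337 bp upstream. Over the 5′ end, the 2 h list had an interval of 540 bp (chrX:20447100-20447639) and the 12 h list one of 838 bp (chrX:20446815-20447652). The 12 h list added intervals of 266 bp and 347 bp upstream, and these hold the first 2 sequences shown above, with 1 AP-1 match each. Merged, the 12 h region reached 2422 bp, the widest of all member regions in any list.

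The other gained regions of Timp1 both lay in introns of Araf, 52650 bp and 49822 bp upstream. They measured 539 and 1140 bp at 2 h and 633 and 1134 bp at 12 h, and the first held 4 AP-1 matches. Among regions in all lists, the start of Elk1 gained the most width from vehicle to 12 h, from 562 bp in vehicle to 764 bp at 2 h and 752 bp at 12 h.

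Timp2 (ENSMUSG00000017466.3, chr11:118162383-118217054, minus strand) had the most regions of the 9 genes, with 18 in the union, of which 7 were in vehicle, then 13 at 2 h and 14 at 12 h. The region at its start was in every list and differed in reach. In vehicle it measured 489 bp and stopped 199 bp short of the 5′ end. At 2 h it measured 874 bp and crossed the 5′ end, and at 12 h it measured 810 bp and stopped 73 bp short. Counting any region within 1000 bp, the 5′ end of Timp2 was covered in all lists.

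The 5 gained regions of Timp2 were all upstream. The nearest, at 4814 bp, measured 837 and 502 bp at 2 h and 12 h, and the widest, 74514 bp upstream in an intron of C1qtnf1, measured 1466 and 1490 bp. Timp2 also held 2 of the 3 union regions that were present in vehicle and missing from a TGFβ list. A region in an intron of Cant1, 53826 bp upstream, measured 264 bp in vehicle and 496 bp at 2 h and was missing at 12 h. Another of 384 bp, 6565 bp downstream in an intron of Timp2, was in vehicle alone with a score of 653. The start of Cant1 gained the most width from vehicle to 12 h, going from 541 bp in vehicle to 715 and 865 bp.

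Timp3 (ENSMUSG00000020044.7, chr10:85763117-85812251, plus strand), which lies within Syn3, had 2 regions in vehicle, then 8 at 2 h and 6 at 12 h. Its 5′ end was in no list. The nearest region, 2395 bp downstream at the start of another Timp3 transcript, was gained and measured 283 and 230 bp at 2 h and 12 h. The other gained regions lay 3903 bp and 29392 bp upstream and 50984 bp downstream, at widths of 338, 639 and 284 bp at 2 h and 542, 606 and 347 bp at 12 h. The 2 vehicle regions were both in introns, 9993 bp and 39011 bp downstream. The first was the one that widened most from vehicle to 12 h, from 393 bp in vehicle to 619 and 594 bp.

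Regions already present in vehicle were mostly wider after TGFβ. Of the 37 vehicle regions with an unambiguous partner at 2 h, meaning 1 region on either side of the match, 36 had widened (97.3%, 86.2 to 99.5), beside 82.7% of all matched regions, with a median difference of 270 bp against 147 bp. At 12 h, 32 of 35 were wider (91.4%, 77.6 to 97.0), beside 83.6%, with a median of 198 bp against 175 bp. The median ratio of widths was 1.45 at 2 h and 1.42 at 12 h, and 1.24 and 1.28 over all matched regions. At least a 2-fold width was reached by 8 of the 37 regions at 2 h and 5 of the 35 at 12 h, beside 16.4% and 18.6% of all matched regions. The 1 region that was not wider at 2 h was that of Plaur, 2168 bp upstream.

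Wider regions were found at starts and away from them. At starts of neighbouring genes 19 of 19 regions were wider at 2 h, by a median of 275 bp, and away from starts 14 of 15 were, by 226 bp. At 12 h the counts were 17 of 19, by 300 bp, and 12 of 13, by 180 bp. This split by position was not made over all matched regions. Between the TGFβ lists the balance was different. Of 62 matched regions 24 were wider at 12 h than at 2 h (38.7%, 27.6 to 51.2) and 38 narrower, with a median difference of -17 bp, while 57.0% of all matched regions were wider at 12 h, with a median of 15 bp. In the 2 h list, regions at the 9 genes had a median width of 639.5 bp, against 587 bp over the whole list. Whether this bears on the share wider at 12 h was not tested. Width follows the reach of a peak call, and the part of signal in it was not tested.

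**Figure D4:**
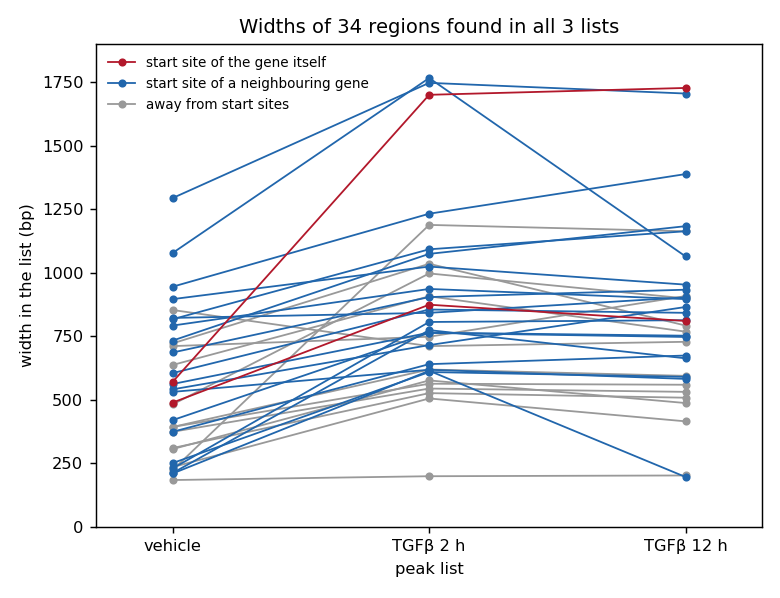
Width in bp of 34 regions that had 1 region in each of the 3 lists, joined by lines over vehicle, TGFβ 2 h and TGFβ 12 h, and coloured by position. At 2 h 33 of them were wider than in vehicle and at 12 h 31 were, and the steepest line at a start of a member itself is the Plaur promoter, from 571 to 1700 and 1727 bp.

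Gained regions mostly lay away from starts. Of the 27 gained regions, 19 were more than 1000 bp from any transcript start, 5 were at the start of another gene and 3 at a start of the member. Of the 35 regions in all lists, 13 were away from starts and 22 at one. The whole union differed in the same direction, since 9706 of 11246 gained regions and 6373 of 15154 regions of all lists were away from starts. Gained regions lay upstream in 17 cases and downstream in 8, 2 covered the 5′ end, and 8 lay within 10 kb of it. These positions were not counted for gained regions at other genes, so no bias of position is read from them. The nearest vehicle interval was between 1151 bp and 459951 bp away, with a median of 12368 bp.

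Widths of the gained regions had medians of 516 bp at 2 h and 521 bp at 12 h, and 12 were wider and 15 narrower at 12 h than at 2 h. In the whole 2 h list, regions of 150 to 248 bp lacked a vehicle region in 88.4% of cases, and regions of 1236 to 3991 bp in 14.9%. When each TGFβ list was restricted to its widest intervals, as many as the vehicle list held, 9 of 60 regions were gained. The gained share of the whole union was not computed for these lists, which leave out the narrow regions that most often lacked a vehicle region. The 5′ ends of Plau and Mmp14 were no longer covered, while that of Timp1 stayed covered in both TGFβ lists.

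AP-1 motifs were frequent at these loci, as in the lists as a whole. In the 500 bp around the centre, 21 of 51 regions away from starts held one (41.2%, 28.8 to 54.8), beside 46.0% of all such regions. Among regions of all lists the count was 8 of 13 (61.5%, 35.5 to 82.3), beside 48.6%, and among gained regions 8 of 19 (42.1%, 23.1 to 63.7), beside 51.6%. At 2 h alone 2 of 6 held one (33.3%, 9.68 to 70.0), beside 33.5%, and at 12 h alone 3 of 10 (10.8% to 60.3%), beside 49.1%. The background lay inside the interval in each case. The SMAD palindrome was found in 0 of 51, which allows up to 7%, beside 1.00%, and the CTCF consensus in 1 of 51, beside 5.03%. With the window narrowed to 200 bp, the count among regions of all lists was 4 of 13 (30.8%). The background shares above are for 500 bp and were not computed for 200 bp. Over their whole length, 31 of the 85 regions (36.5%) held 49 AP-1 matches, beside 41.8% of all union regions. Of these, 12 of the 27 gained regions (44.4%) held 20 matches, beside 54.0% of all gained regions, with 3 regions each at Plau and Timp2, 2 each at Timp1 and Adamts1 and 1 each at Mmp9 and Timp3. The gained regions of Plaur, Mmp2 and Mmp14 held none.

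Base composition at the 5′ ends was described over 1000 bp. CpG observed over expected was lowest at Mmp9 (0.218), Plaur (0.295) and Timp1 (0.299) and highest at Timp3 (0.664) and Adamts1 (0.672). Medians over all genes were 0.775 for 5′ ends covered in every list and 0.268 for those in none. Plaur was thus covered in every list with a ratio near the median of uncovered genes, and Timp3 was covered in none with a ratio nearer to that of covered genes.

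Other genes of extracellular proteolysis were described from a list of 42 genes. Their median counts were 3 regions in vehicle and 6 in each TGFβ list, with 2 gained regions, and 30 of 42 had at least 1 gained region (71.4%). The 5′ end was covered in every list at 12 genes (28.6%), in both TGFβ lists without vehicle at 2 (4.76%), at 2 h alone at Htra1, at 12 h alone at Mmp10 and in no list at 26 (61.9%). The corresponding shares of all genes were 62.7% with a gained region, 35.5% covered in every list, 4.72% in both TGFβ lists without vehicle and 57.1% in none. The 2 genes covered in both TGFβ lists were Mmp13, a collagenase, and Mmp28. Those covered in every list included Plat, which encodes the tissue plasminogen activator, and the cathepsin genes Ctsb, Ctsd and Ctsl. Of 15 metalloproteinase genes 11 were covered in no list, as were Mmp2 and Mmp9.

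The most gained regions in that list were at Adam15 and Ctsd, with 6 each, as many as at Plau, and then at Mmp12 and Mmp13, with 5 each. Mmp12 held 0 regions in vehicle and 6 in each TGFβ list, and Mmp13 held 1, 7 and 8. These neighbours lie 71867 bp apart on chromosome 9, so their windows share regions.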

How the data were processed

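ATAC-seq libraries from NMuMG cells were grouped by the sample labels into vehicle, TGFβ 2 h and TGFβ 12 h, with 2 replicates each. The authors used the ENCODE ATAC-seq pipeline, mapped to mm9, called peaks with MACS2 2.1.2 and kept peaks reproducible between replicates by the irreproducible discovery rate. They deposited 1 interval list per condition, with a score in the vehicle list (540 to 1000, scale not stated) and a line number in the same column of both TGFβ lists, which was not used. The lists hold no read counts and no single replicates, and the library read totals stated by the study were used only to order the conditions by depth.

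Distinct intervals of at least 150 bp were merged at gaps under 1000 bp in each list, and once more across lists to form the union. A region belonged to a gene if within 100 kb of the 5′ end of its record in GENCODE vM1 on NCBIM37. Presence in a list was read from the union region, and overlap of 1 bp matched regions for comparisons of width. Widths were compared for vehicle regions matched to a single region that matched them alone. A region was away from starts if more than 1000 bp from any of 86879 transcript starts. Motifs were exact matches on both strands to TGAGTCA or TGACTCA (AP-1), GTCTAGAC (SMAD, which does not overlap the AP-1 letters) and the CTCF consensus. Shares have 95% Wilson intervals. The interval and motif code was tested on simulated data.

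The 9 genes, the 42 related genes and the markers were chosen with earlier results of these data known. Regions named at each gene were the one over the 5′ end or else the nearest, the nearest gained one, the one with the largest gain of width from vehicle to 12 h, and each vehicle region missing from a TGFβ list. By rule, sequences were shown from the nearest gained region of a gene where that region held an AP-1 match. The remaining gained regions, the other sequences, the promoter runs and the width comparison of 12 h with 2 h were added after the data were seen. Alternatives varied the merge gap, width minimum, window, list length, definition of the 5′ end, minimum difference of width and motif window. Python 3.11.15, numpy 2.4.6, scipy 1.17.1 and matplotlib 3.10.9 were used.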

Additional observations from a re-analysis of the deposited data

How the results depend on the processing

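No paired analysis was possible because each list was made from both replicates and holds no value per replicate. No fit without a replicate was made either. The lists hold no read counts, so the depth of single regions is unknown here. With 21 values reported, 126 alternative values stayed within the limits set for a change and 34 moved. No vehicle share wider after TGFβ changed direction.

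Regions in vehicle alone numbered 2 with a merge gap of 500 bp or without merging and 0 with a gap of 2000 bp, and that last gap left 1 region in vehicle and 2 h and 1 in vehicle and 12 h. Without merging, 100% of 35 matched regions were wider at 2 h. A width minimum of 300 bp left 1 region in vehicle and 2 h and removed the 5′ coverage of Mmp14 at 12 h. Counting only differences of at least 100 bp, the shares wider were 83.8% (31 of 37) at 2 h and 77.1% (27 of 35) at 12 h. The same rule gave 16.1% (10 of 62) for 12 h against 2 h, an alternative chosen after seeing the data.

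With the TGFβ lists shortened to the length of the vehicle list, by width, the loci held 47 regions at 2 h and 38 at 12 h, with 9 in both TGFβ lists without vehicle, 4 at 12 h alone, 5 in vehicle and 2 h and 9 in vehicle alone, and 2 genes had a covered 5′ end at 12 h. These lists hold fewer intervals by construction, and shares over the whole union were not computed for them.

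A window of 50 kb held 52 regions, of which 22 were in the vehicle list, 43 in the 2 h list, 46 in the 12 h list, 20 in all lists, 4 at 2 h alone and 1 in vehicle and 2 h. A window of 200 kb held 141 regions, of which 71 were in the vehicle list, 120 in the 2 h list, 125 in the 12 h list, 67 in all lists, 13 at 2 h alone and 19 at 12 h alone, with 1 in vehicle and 12 h. With any transcript 5′ end counted, 7 genes were covered at 12 h, and Timp2 and Adamts1 were then covered in every list. In motif windows of 200 bp, 4 of 13 regions of all lists held AP-1 (30.8%), and no background share was computed for that window.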
